A study of Mus musculus with 12 samples.

Results

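The set comprised genes of the distal end of mouse chromosome 5, from Taok3 to Rfc3, measured in EML1 cells with and without the leukaemia fusion TEL-AML1. Of 58 listed genes, 56 had a probe set that named 1 gene, and 55 of these lay in the stretch and passed the filter on dim probe sets, out of 12345 genes tested and 18820 genes named on the arrays. Por and Bud31 had no probe set naming 1 gene. Pus1 was listed but lies proximal to Taok3, with 67 tested genes between them, and is given apart. The members were chosen by their lower signal in TEL-AML1 arrays. That difference is therefore only described below, and counts of members past a threshold on it are not a test.

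EML1 is a haematopoietic progenitor line. It was derived by infecting marrow of male BDF1 mice with a retrovirus, LRARalpha403SN, which all groups therefore carried. The cells had received either the lentiviral vector pWPI without an insert, called empty vector here, or TEL-AML1 cloned into pWPI. Both were profiled untreated, at day 5 and at day 7 of treatment with IL7 and FLT3L, which support early lymphoid cells. This made 6 groups of 2 Affymetrix arrays each. The culture protocol in the labels describes plating on OP9 stromal cells for that treatment, while the titles name only the cytokines. Nothing in the labels states that the replicates came from separate cultures, so each p-value is set against array-to-array spread that could be technical only. Whether a population was 1 clone is not stated either.

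A cell that carries a different number of copies of a chromosome segment usually makes RNA from most of its genes in proportion to the copies. Some genes escape because feedback sets their level, because they are silent, or because another regulator acts on them. TEL-AML1, the fusion of ETV6 and RUNX1, keeps the DNA-binding domain of RUNX1 and occurs in childhood leukaemia of B-cell precursors. An array gives only the ratio between groups. A loss in the TEL-AML1 cells and a gain in the empty-vector cells cannot be told apart, and copy number itself was not measured. The reference value used throughout is 2/3 (66.7%, log2 -0.58), the ratio of 2 copies to 3.

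The 250 bases upstream of 4 genes are printed because these genes span the range of behaviour. Cpsf4 and Baz1b were in the class near the 2/3 ratio, defined below, in every condition, with Cpsf4 the steeper, Flt1 was far below it and Pilra was higher with TEL-AML1. The sequences are from RefSeq (GRCm38.p6), on the strand of the gene and 5′ to 3′, with any match to the RUNX core motif (TGTGGT or TGCGGT on either strand) in capitals.
Cpsf4, chr5:145166963-145167212 (+ strand): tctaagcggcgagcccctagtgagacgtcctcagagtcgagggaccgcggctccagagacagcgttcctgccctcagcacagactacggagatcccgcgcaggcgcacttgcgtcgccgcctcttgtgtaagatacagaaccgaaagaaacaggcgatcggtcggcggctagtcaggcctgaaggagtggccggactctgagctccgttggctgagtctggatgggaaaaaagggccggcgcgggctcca
Baz1b, chr5:135187073-135187322 (+ strand): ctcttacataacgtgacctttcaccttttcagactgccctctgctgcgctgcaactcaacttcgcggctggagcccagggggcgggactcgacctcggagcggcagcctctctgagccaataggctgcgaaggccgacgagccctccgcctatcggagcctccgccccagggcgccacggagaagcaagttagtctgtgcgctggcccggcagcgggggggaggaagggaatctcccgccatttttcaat
Flt1, chr5:147726012-147726261 (- strand): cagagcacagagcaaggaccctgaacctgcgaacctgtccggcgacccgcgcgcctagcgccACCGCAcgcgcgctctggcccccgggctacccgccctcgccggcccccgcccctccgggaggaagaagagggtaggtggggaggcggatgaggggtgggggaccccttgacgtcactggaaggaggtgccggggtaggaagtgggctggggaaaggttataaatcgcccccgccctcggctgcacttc
Pilra, chr5:137836279-137836528 (- strand): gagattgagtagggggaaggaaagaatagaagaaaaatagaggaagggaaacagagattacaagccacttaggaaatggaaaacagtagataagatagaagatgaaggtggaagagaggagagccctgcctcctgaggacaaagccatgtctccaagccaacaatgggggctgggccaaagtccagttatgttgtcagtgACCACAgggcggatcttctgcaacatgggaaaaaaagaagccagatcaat
Cpsf4 and Baz1b held no match in these letters, and Flt1 and Pilra held 1 each, both on the opposite strand. Of the members, 47 matched a promoter in the RefSeq table, and 9 of those (19.1%) held the motif in the window of 300 bases around the start, against 18.7% of all 27025 promoters in the table. Members' promoters had a median GC content of 63.2%, against 52.0% for the table. The motif was thus about as frequent in the members as in promoters generally, and a match is a description of letters only.

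Before treatment the median member was lower by 0.53 on the log2 scale in TEL-AML1 cells, an intensity ratio of 69.1%. The median difference was -0.42 at day 5 (73.8%) and -0.49 at day 7 (70.3%), so in every condition the median member sat slightly above the 2/3 ratio. All differences between vectors here are TEL-AML1 minus empty vector on the log2(intensity + 16) scale. The SD over members was 0.295, 0.435 and 0.547 in the 3 conditions, against a median standard error of 0.092 for a single member. Pilra, Pilrb1 and Flt1 carry much of that spread: without them the SD was 0.221, 0.216 and 0.256, which is still above the standard error. Each array's median over the members, after centring each gene, lay between 0.18 and 0.33 on the 6 empty-vector arrays and between -0.28 and -0.19 on the 6 TEL-AML1 arrays, with no overlap.

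Both TEL-AML1 arrays lay below both empty-vector arrays for 54, 50 and 50 of the 55 members, where 33.9%, 21.9% and 28.4% of all tested genes did so untreated, at day 5 and at day 7. By limma with Benjamini-Hochberg adjustment over all genes, 43, 30 and 38 members were lower at an adjusted p under 0.05, and 6.15%, 4.27% and 6.0% of all genes were. Nothing is read from these counts, since the members were selected on this contrast. The selection itself makes such counts high, so they cannot test whether the members are lower. The other 19 chromosomes had medians between -0.04 and 0.03 over the 3 conditions. The rest of chromosome 5, 449 genes, had medians of -0.03, 0.00 and -0.02.

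**Figure D1:**
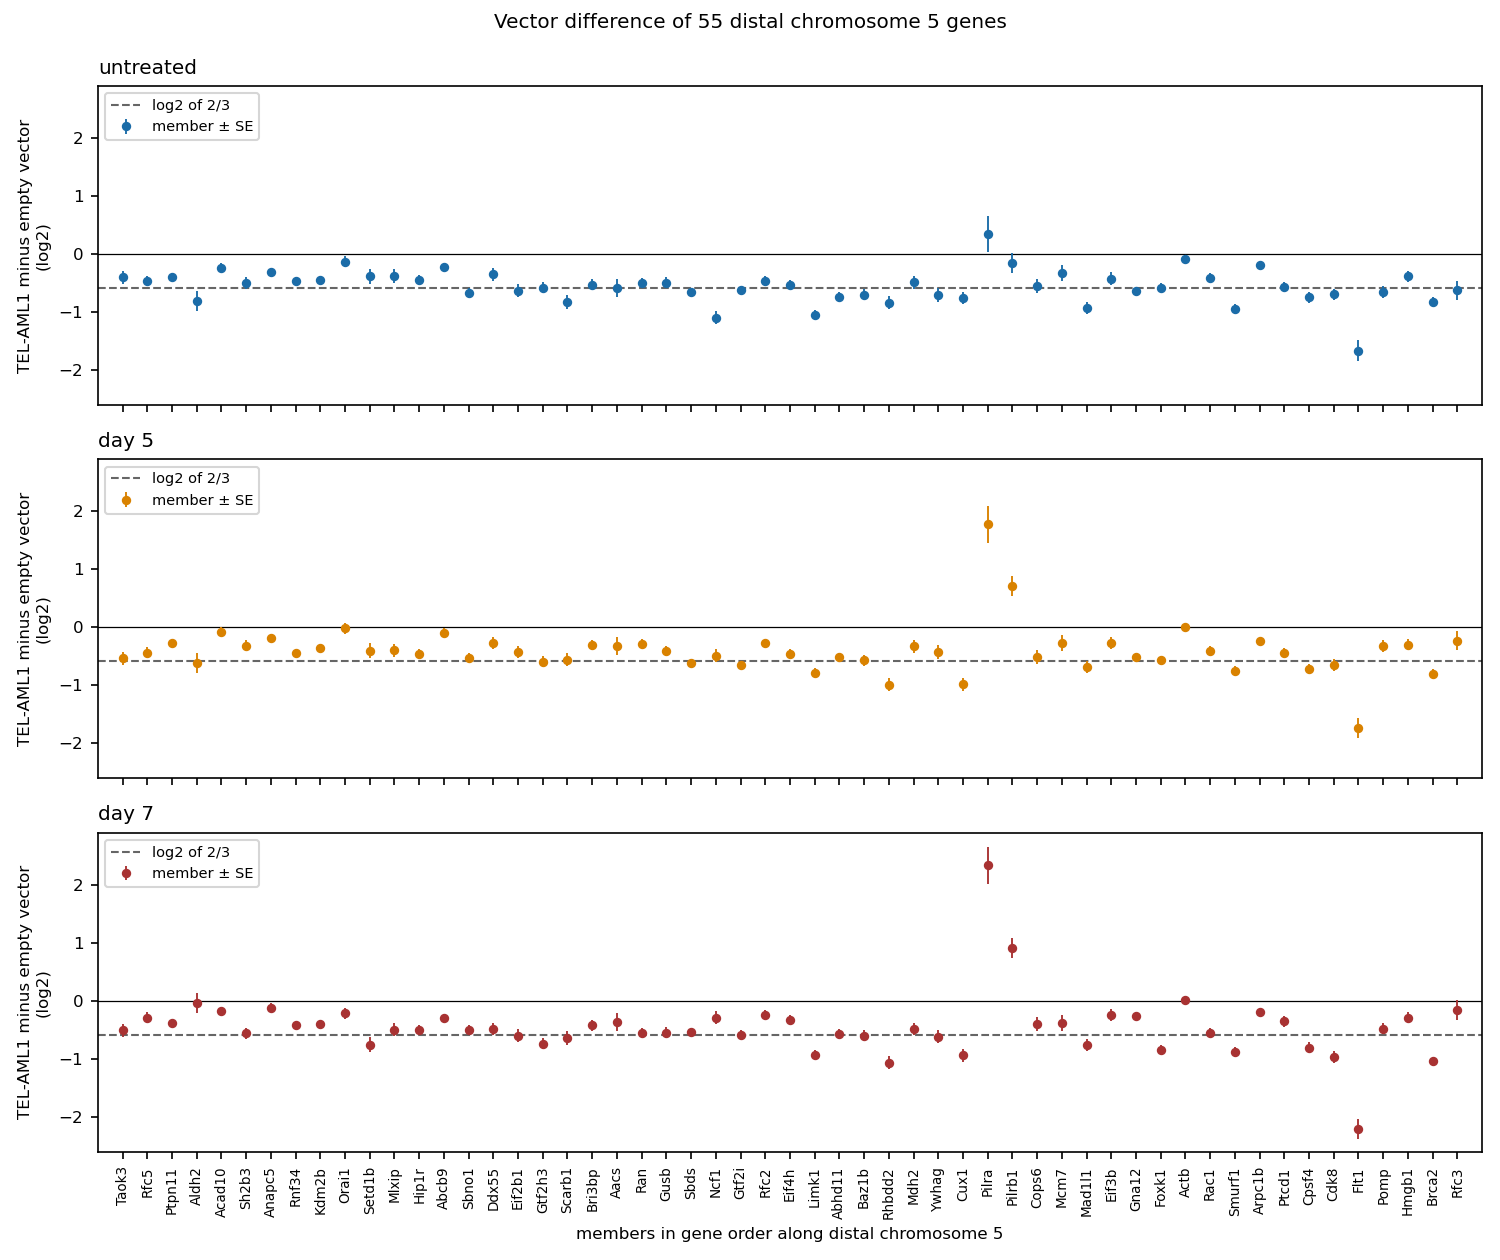
Difference between TEL-AML1 and empty vector (log2, ± SE from the model) for each of the 55 members in gene order, in 3 panels for untreated cells, day 5 and day 7; the dashed line is log2 of 2/3 and the solid line is 0. Most points lie near the dashed line, Flt1 lies far below it in every panel, and Pilra and Pilrb1 lie far above it on both days.

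Members were placed in classes by their distance from the reference. A difference between 0.5 and 1.5 times log2 of 2/3, which is a ratio of 0.544 to 0.816, counted as near the ratio, a smaller or opposite one as escaping, and a larger one as beyond it. By this division 43 members were near the ratio untreated, 37 at day 5 and 34 at day 7. Escaping members numbered 7, 15 and 14, and members beyond it 5, 3 and 7. In all 3 conditions 27 members were near the ratio, 6 escaped (Acad10, Orai1, Pilra, Pilrb1, Actb and Arpc1b), Flt1 alone was beyond it, and 21 changed class. Of the 278 other tested genes of the stretch, 110 were near the ratio in all 3 conditions, 103 escaped and 4 were beyond it. Several members sit at the edge of a class. At day 7 Ncf1 counted as near the ratio and Rfc5 as escaping with differences that both round to -0.29. Untreated, Anapc5 (-0.30) was the last member inside and Acad10 (-0.24) the first outside.

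The members kept a similar order from one condition to the next. The differences correlated across members with r = 0.842 between untreated cells and day 5, 0.767 between untreated cells and day 7 and 0.952 between the days (Spearman 0.839, 0.644 and 0.772, n = 55). These pairs share no array, but they share the probe sets and the cell populations. Without Pilra, Pilrb1 and Flt1 the values were 0.796, 0.577 and 0.783 (n = 52).

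The stretch was bounded with this contrast known, so the neighbouring genes describe its proximal edge and do not test it. Taok3, a kinase that acts upstream of MAP kinases, read 915 and 817 on the untreated empty-vector arrays and 663 and 640 with TEL-AML1, and it read 953 and 1026 against 670 and 688 at day 5 and 1257 and 980 against 806 and 746 at day 7. The groups did not overlap in any condition, and the differences were -0.40, -0.53 and -0.51. Pebp1 and Vsig10, the next tested genes inside, had untreated differences of -0.48 and -0.51, although Pebp1 was at -0.06 at day 5. Outside, Suds3 had -0.41, -0.17 and -0.10, Ccdc60 had 0.21, 0.03 and -0.13, and Prkab1 had 0.45, 0.30 and 0.34. Ccdc60 was just over the filter, with a mean intensity of 63.1 against 1151 for Prkab1, and genes that dim showed little difference inside the stretch too. By these few genes the step lay between Prkab1 and Taok3. Suds3 was about as low as Taok3 in untreated cells (-0.41 and -0.40) and closer to 0 later, so its side of the edge is unclear. Pus1, an enzyme that modifies uridines in RNA, lay well outside and had differences of -0.13, 0.12 and 0.23.

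No tested gene lay beyond Rfc3, so the distal side of the stretch was not bounded by these data. Rfc3 read 524 and 624 untreated with empty vector against 368 and 363 with TEL-AML1, a difference of -0.62. At day 5 it read 494 and 409 against 366 and 398, and at day 7 296 and 454 against 329 and 326. The groups were apart untreated and at day 5 and overlapped at day 7, where the difference was -0.16 ± 0.167 (SE). Its neighbour Pds5b, which regulates cohesin, kept differences of -0.65, -0.76 and -0.81. Stard13, the gene between them, was just over the filter and had differences of 0.10, 0.00 and 0.05.

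**Figure D2:**
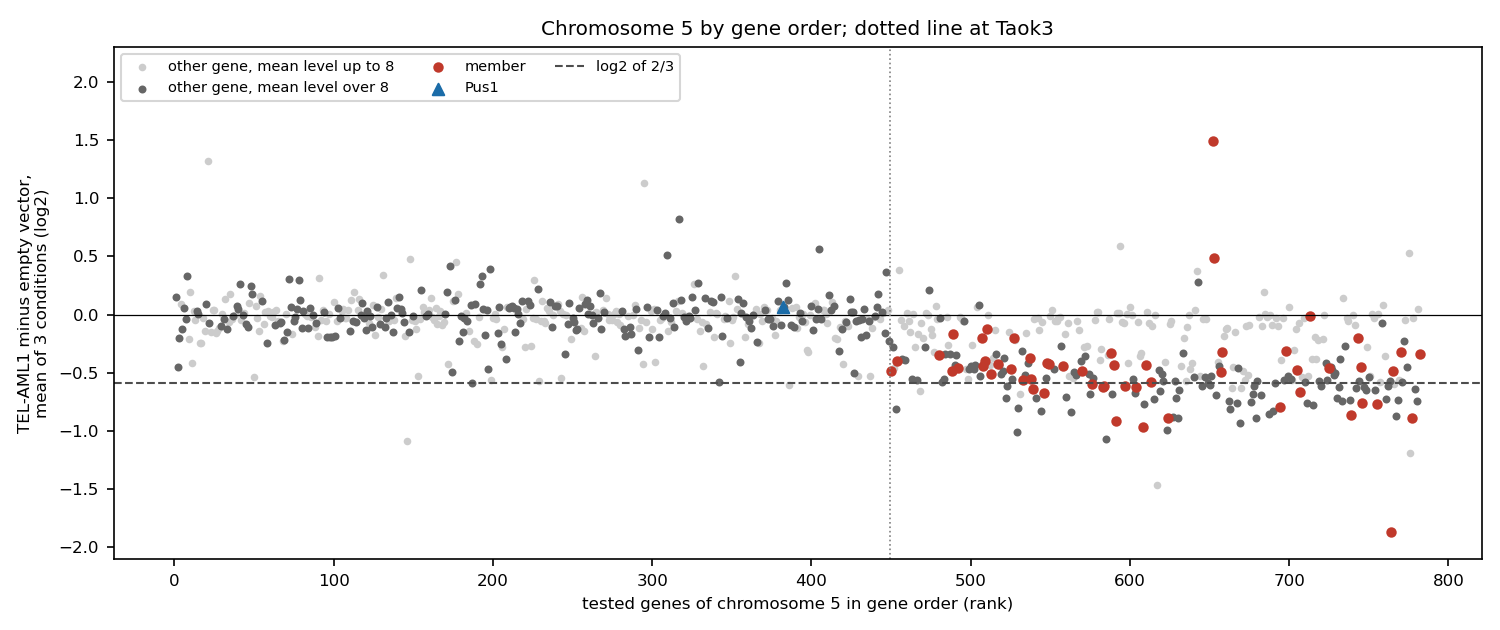
Mean difference between TEL-AML1 and empty vector over the 3 conditions (log2) for all 782 tested genes of chromosome 5 by rank in gene order, with members in red, Pus1 as a triangle, other genes dark where their mean level is over 8 on the log2 scale and pale below; the dashed line is log2 of 2/3 and the dotted line marks Taok3. Left of Taok3 the genes centre on 0, and right of it the dark points and the members centre near the dashed line while many pale points stay near 0.

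The stretch holds 278 other tested genes, and the size of their difference went with the brightness of their probe sets. Their medians were -0.45, -0.31 and -0.37 in the 3 conditions. The 93 dimmest, with mean intensities up to 99.99, had medians of -0.00, -0.07 and -0.07, and the 92 brightest had -0.62, -0.53 and -0.55. Averaged over conditions, the 99 stretch genes with a mean level up to 7 had a median of -0.04. Those at 7 to 8 had -0.42, at 8 to 9 -0.56, at 9 to 10 -0.58 and at 10 to 11 -0.51. The 11 genes over 11 had a median of -0.23, and the lowest of them was at -0.43. The difference was therefore small at both ends of the intensity range and close to log2 of 2/3 in between. Only 2 members had a level up to 7, Acad10 and Abcb9, while 5 of the 11 genes over 11 were members, Actb, Arpc1b, Mdh2, Eif3b and Hmgb1. The part of probe brightness in the class of a single member was not tested.

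The replication and cell cycle members were lower in every condition, and several sat above the reference after treatment. The 9 genes had medians of -0.49, -0.29 and -0.38. Mcm7, a subunit of the helicase that opens DNA at origins, was the brightest and read 2281 and 2033 against 1745 and 1701 untreated, 2120 and 2150 against 1617 and 1948 at day 5, and 1860 and 2528 against 1639 and 1681 at day 7. Its groups did not overlap in any condition, and its differences were -0.32, -0.26 and -0.38 ± 0.135 (SE). The small subunits of replication factor C, which loads the sliding clamp, are all in the stretch except Rfc4. Rfc5 had differences of -0.46, -0.43 and -0.29, and Rfc2 had -0.46, -0.28 and -0.25. Brca2, which acts in the repair of broken DNA, was steeper at -0.82, -0.79 and -1.04. It read 441 and 437 against 234 and 249.4 untreated, with no overlap in any condition. Cdk8, the kinase of the Mediator complex, had -0.69, -0.64 and -0.97, and Mad1l1, of the spindle checkpoint, had -0.93, -0.68 and -0.76. Ran, the GTPase of nuclear transport, had -0.49, -0.29 and -0.56. Anapc5, of the anaphase-promoting complex, had -0.30, -0.19 and -0.12, and its 4 other probe sets had medians of -0.05, -0.06 and -0.07. Those 4 were dim, with mean intensities of 72.8 to 110.7 against 1413 for the set used.

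The chromatin and transcription members kept closest to the reference, with medians of -0.57, -0.54 and -0.59 over 10 genes. None escaped untreated or at day 5, and only Hmgb1 did at day 7. Baz1b, a subunit of chromatin remodelling complexes, read 1292 and 1352 against 810 and 806 untreated, 1281 and 1220 against 809 and 874 at day 5 and 1119 and 1336 against 758 and 847 at day 7. Its ratios were 0.611, 0.673 and 0.654. Gtf2i, a transcription factor, had differences of -0.62, -0.64 and -0.58, and Gtf2h3, a subunit of the repair and transcription factor TFIIH, had -0.57, -0.59 and -0.74. Kdm2b, a histone demethylase, had -0.45, -0.35 and -0.40, and Setd1b, a histone methyltransferase, had -0.38, -0.40 and -0.76. Sbno1 had -0.67, -0.52 and -0.50, Mlxip, a transcription factor that responds to glucose, had -0.38, -0.40 and -0.50, and Foxk1, a forkhead factor, had -0.57, -0.56 and -0.85. The second probe set of Foxk1 stayed at -0.14, -0.10 and -0.04, but it was under the filter, with a mean intensity of 45.95 against 499.8 for the set used.

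Cux1 had the steepest differences of that group in each condition, and Hmgb1 the shallowest on both days. Cux1, a homeodomain factor, read 993 and 978 against 571 and 583 untreated, 1394 and 1425 against 682 and 736 at day 5 and 1598 and 1356 against 681 and 850 at day 7, differences of -0.76, -0.98 and -0.94. Hmgb1, an abundant protein that bends DNA, read 2548 and 2627 against 1921 and 2040 untreated, 2686 and 2616 against 2179 and 2131 at day 5, and 2790 and 2288 against 2084 and 2042 at day 7. Its groups did not overlap, with differences of -0.38, -0.30 and -0.29. Hmgb1 had 24 probe sets, more than any other member, and the others had medians of -0.17, -0.25 and -0.31.

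The 7 members of RNA processing and translation had medians of -0.57, -0.44 and -0.48. Cpsf4, which binds the polyadenylation signal as part of the cleavage machinery, had the largest differences, -0.74, -0.72 and -0.81. It read 1148 and 1051 against 665 and 634 untreated, 1094 and 1119 against 647 and 690 at day 5, and 1001 and 1186 against 599.7 and 630.0 at day 7. Eif3b, a scaffold subunit of the initiation factor eIF3, was the brightest and read 3044 and 3040 against 2253 and 2288 untreated, 2523 and 2447 against 2071 and 2051 at day 5 and 1997 and 2581 against 1837 and 1994 at day 7. Both genes kept their groups apart, and the differences of Eif3b were smaller at -0.42, -0.27 and -0.24 ± 0.106 (SE). Sbds, needed for ribosome maturation, had -0.65, -0.61 and -0.53, and Eif2b1, of the exchange factor for eIF2, had -0.63, -0.42 and -0.60. Eif4h, a helicase cofactor, had -0.53, -0.45 and -0.32, Ptcd1, a mitochondrial RNA-binding protein, had -0.57, -0.44 and -0.35, and Ddx55, a DEAD-box helicase, had -0.35, -0.27 and -0.48.

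The 4 members of protein turnover were lower in every condition and none escaped, with medians of -0.60, -0.48 and -0.45. Cops6, a subunit of the COP9 signalosome, read 1793 and 1792 against 1177 and 1267 untreated, 1616 and 1464 against 1154 and 996 at day 5 and 1150.0 and 1486 against 980.0 and 990 at day 7. Its groups stayed apart, at -0.55, -0.51 and -0.40. Smurf1, a ubiquitin ligase of the BMP pathway, was steeper at -0.95, -0.75 and -0.88. Rnf34, another ubiquitin ligase, had -0.46, -0.44 and -0.42, and Pomp, which assembles the proteasome, had -0.65, -0.32 and -0.48.

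The 11 members of signalling and the cytoskeleton ranged from no difference to more than the reference, with medians of -0.41, -0.40 and -0.50. Actb, cytoplasmic beta-actin and the brightest member, read 5680.0 and 5781 against 5423 and 5399 untreated, 5623 and 5374 against 5618 and 5493 at day 5 and 5402 and 5464 against 5501 and 5531 at day 7. The groups were apart untreated, overlapped at day 5, and at day 7 both TEL-AML1 arrays were the higher. Its differences were -0.08, 0.02 and 0.02 ± 0.0649 (SE). Arpc1b, a subunit of the Arp2/3 complex that nucleates actin branches, read 3684 and 3696 against 3252 and 3234 untreated, 3454 and 3484 against 3007 and 2901 at day 5 and 3312 and 3622 against 2994 and 3059 at day 7. Its groups did not overlap, and its differences of -0.19, -0.23 and -0.19 ± 0.07 (SE) were smaller than the reference; its second probe set gave -0.27, -0.26 and -0.21. Arpc1a, its neighbour in gene order and no member, had a mean difference of -0.63 over the conditions, against -0.20 for Arpc1b. Limk1, the kinase that blocks the actin-severing protein cofilin, was beyond the ratio in untreated cells and at day 7. It read 803 and 778 against 390 and 361 untreated, and its differences were -1.04, -0.78 and -0.93 ± 0.0838 (SE).

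Orai1, the pore of the store-operated calcium channel, read 221 and 218 against 195 and 203 untreated, 240.3 and 239 against 219.7 and 256 at day 5 and 270.0 and 255 against 202 and 246 at day 7. The groups overlapped at day 5, and the differences were -0.13, -0.02 and -0.22 ± 0.0988 (SE). The remaining signalling members stayed closer to the reference. Rac1, a GTPase of the actin cytoskeleton and of the NADPH oxidase, had -0.41, -0.40 and -0.56, Ywhag, an adaptor that binds phosphorylated proteins, had -0.71, -0.42 and -0.62, and Hip1r, which links clathrin to actin, had -0.44, -0.46 and -0.50. Sh2b3, an adaptor that restrains cytokine signalling in blood cells, had -0.50, -0.31 and -0.56. Ptpn11, a phosphatase downstream of cytokine receptors, had -0.40, -0.27 and -0.39, and Gna12, a G protein subunit, had -0.64, -0.51 and -0.26.

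The 5 surface and immune members were the most spread. Flt1, a receptor for VEGF, read 1531 and 1472 against 466 and 461 untreated, 845 and 953 against 214 and 309.7 at day 5 and 782 and 1055 against 205 and 165 at day 7. The TEL-AML1 arrays held 0.309, 0.291 and 0.201 of the empty-vector intensity, and the differences were -1.66, -1.74 and -2.21 ± 0.174 (SE). Scarb1, a receptor for high-density lipoprotein, read 874 and 719 against 452 and 430.2 untreated, 748 and 705 against 477 and 502 at day 5 and 643 and 804 against 449 and 464 at day 7. Its groups were apart in each condition, at -0.82, -0.55 and -0.64. Ncf1, the organising subunit of the phagocyte NADPH oxidase, read 273 and 247 against 117 and 109 untreated, 142 and 144 against 89.4 and 105 at day 5 and 147 and 122 against 117 and 97.2 at day 7. It went from beyond the ratio to its shallow edge, at -1.09, -0.49 and -0.29.

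Pilra and Pilrb1 encode an inhibitory and an activating receptor of one family and are adjacent in gene order. Pilra read 449.5 and 565 with empty vector against 589 and 708 with TEL-AML1 untreated, 215 and 168 against 1026 and 465 at day 5 and 158 and 181 against 1159 and 729 at day 7. The TEL-AML1 arrays were the higher in each condition, by 0.35, 1.78 and 2.34 ± 0.317 (SE), and the 2 TEL-AML1 arrays of each day differed widely from each other. Pilrb1 read 344 and 349 against 316 and 305 untreated, 248 and 238 against 496 and 338 at day 5 and 215 and 245 against 519 and 382 at day 7. It was lower untreated and higher later, with differences of -0.15, 0.72 and 0.91 ± 0.169 (SE). Being paralogs, they may share probe signal, and this was not tested. Signal of mast cell markers, 4 of 5 over the filter, was also higher with TEL-AML1 in each condition: it summed to 4466 to 4780.0 with empty vector against 5033 to 5058 untreated, to 4413 to 4840.0 against 4915 to 6118 at day 5 and to 4273 to 5157 against 5793 to 6628 at day 7. Cpa3, which gives most of that sum, was level between vectors, and Ms4a2, Tpsb2 and Cma1 carried the rise. The 3 erythroid markers with a probe set summed to 230 to 267 against 257 to 464 at day 5 and to 240.2 to 268 against 332 to 468 at day 7. Macrophage markers, 4 of 6 over the filter, summed to 647 to 735 against 741 to 747 untreated, 478 to 591 against 563 to 712 at day 5 and 579 to 649 against 585 to 609 at day 7. The part of these cell types in the Pilra and Pilrb1 values was not tested.

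**Figure D3:**
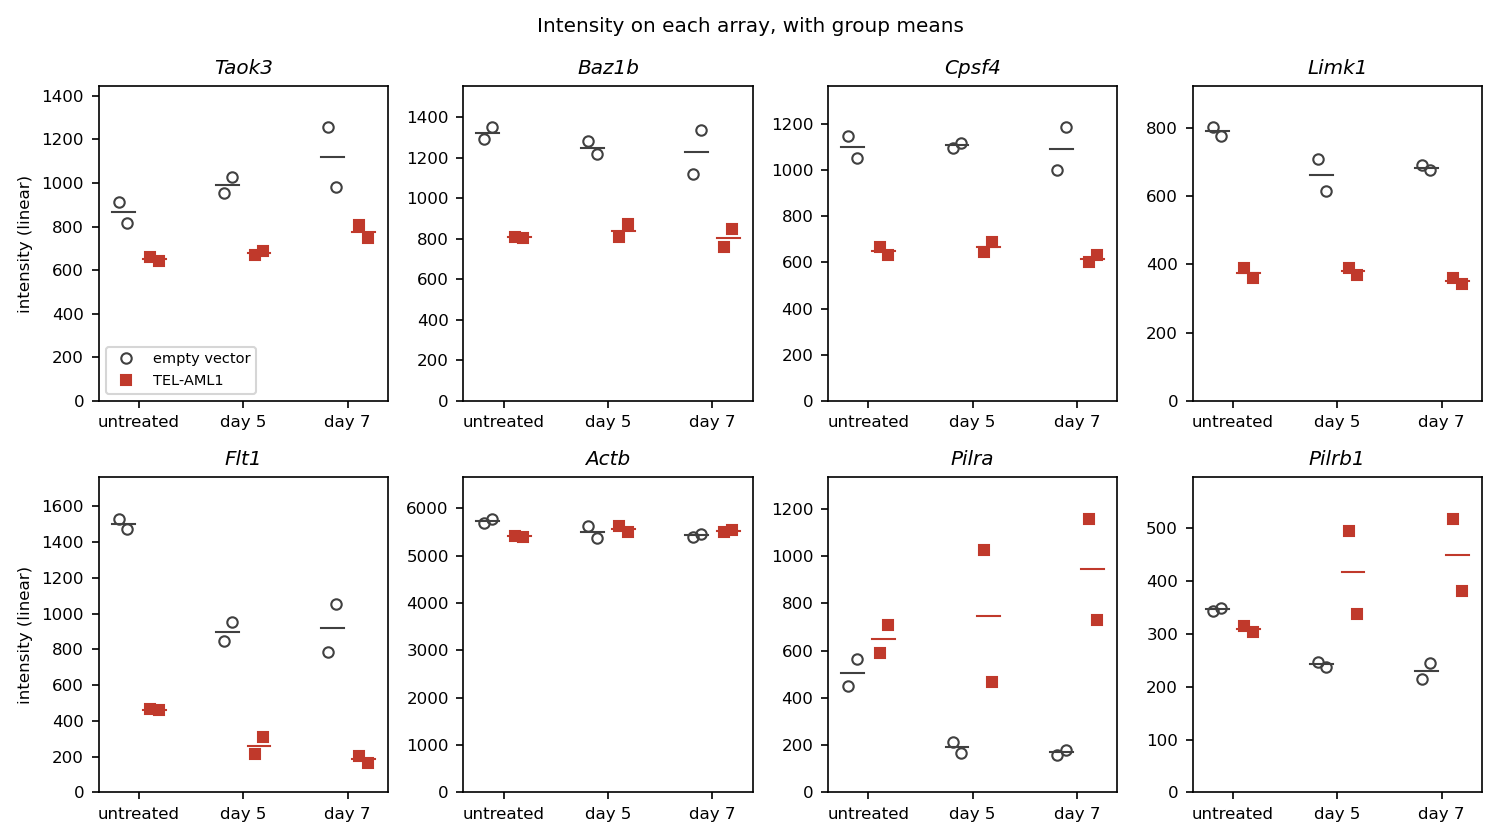
Intensity on each array (linear, from 0) for 8 members, with open circles for empty vector, filled squares for TEL-AML1 and short lines at the mean of each group of 2. Taok3, Baz1b and Cpsf4 keep both vectors apart by a similar ratio, Limk1 and Flt1 are further apart, Actb is level, and Pilra and Pilrb1 are higher with TEL-AML1 on both days.

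The 9 members of metabolism and membranes had medians of -0.52, -0.33 and -0.42. Mdh2, mitochondrial malate dehydrogenase, read 3171 and 3037 against 2190.0 and 2240.0 untreated, 3042 and 2950.0 against 2389 and 2378 at day 5 and 2546 and 3315 against 2001 and 2136 at day 7. Its groups did not overlap, at -0.48, -0.33 and -0.49. Acad10, related to the acyl-CoA dehydrogenases, read 84.8 and 81.3 against 68.6 and 67.5 untreated, 77.0 and 74.9 against 68.3 and 74.5 at day 5 and 85.9 and 78.7 against 74.9 and 66.8 at day 7. The TEL-AML1 arrays were the lower in each condition, by little: -0.24, -0.07 and -0.18 ± 0.0778 (SE). Rhbdd2 was steeper at -0.83, -0.99 and -1.07, while its second probe set, under the filter at a mean intensity of 50.6, gave -0.10, -0.14 and -0.19. Aldh2, mitochondrial aldehyde dehydrogenase, went from -0.81 and -0.61 to -0.04 ± 0.172 (SE) at day 7. Gusb, lysosomal beta-glucuronidase, had -0.49, -0.41 and -0.55, and Abhd11, a mitochondrial hydrolase, had -0.74, -0.52 and -0.58. Aacs, which activates acetoacetate, had -0.59, -0.32 and -0.36, Bri3bp had -0.52, -0.30 and -0.42, and Abcb9, a lysosomal peptide transporter, had -0.22, -0.09 and -0.30.

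Several members are subunits of complexes with other subunits encoded outside the stretch. The choice of members did not use the values of those partners. The partner list itself was drawn up with earlier results of these data known. Of 69 listed partner genes, 57 outside the stretch were tested over the mean of the 3 conditions, 6 arrays against 6. Their median difference was 0.04, against -0.43 for the members of the same complexes and -0.01 for all tested genes. At an adjusted p under 0.05 (limma, Benjamini-Hochberg over all genes) 10 partners were higher with TEL-AML1 and 1 was lower, and of all tested genes 9.83% were higher and 12.7% lower. Both figures for all genes include genes of the stretch. The members' own value here is the one they were chosen by and is given for scale only. The partners were centred near 0.

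The calls spread over 7 of the 11 complexes. Rac2, the haematopoietic relative of Rac1 and a subunit of the NADPH oxidase, had mean intensities of 1443 with empty vector and 2027 with TEL-AML1, a rise of 0.48 ± 0.0442 (SE, adjusted p = 2.56e-05 by limma). Gtf2h4 of TFIIH rose by 0.49 (adjusted p = 7.29e-05), Actr3 of the Arp2/3 complex by 0.40 (adjusted p = 8.97e-05) and Ncf4 of the oxidase by 0.39 (adjusted p = 0.00108), all by limma. Cpsf3, the nuclease of the cleavage machinery, rose by 0.23 (adjusted p = 0.00193) and Mcm3 by 0.25 (adjusted p = 0.0141). These 6 calls held in each of 12 fits that left out 1 array. Mcm6 (0.19), Eif3a (0.13), Eif3c (0.16), Eif3e (0.23) and Cops3 (-0.15) passed with all arrays and held in 10, 2, 3, 5 and 2 of those 12 fits. Eif3c and Cops3 also lost the call when a gene's probe sets were averaged (adjusted p = 0.317 and 0.0996 by limma), and Eif3a lost it with centred arrays (0.0525) or a pseudocount of 1 (0.0515). The 11 calls went down to 6 without untreated replicate 1 of the empty vector or untreated replicate 2 of TEL-AML1. They went down to 7 without day 5 replicate 2 of the empty vector, day 5 replicate 1 of TEL-AML1 or day 7 replicate 2 of TEL-AML1. None of the tested partners passed in eIF2B, the Mediator kinase module, the anaphase-promoting complex, or replication factor C with its clamp. Anapc7, listed as a partner, itself lies in the stretch and had a difference of -0.47.

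**Figure D4:**
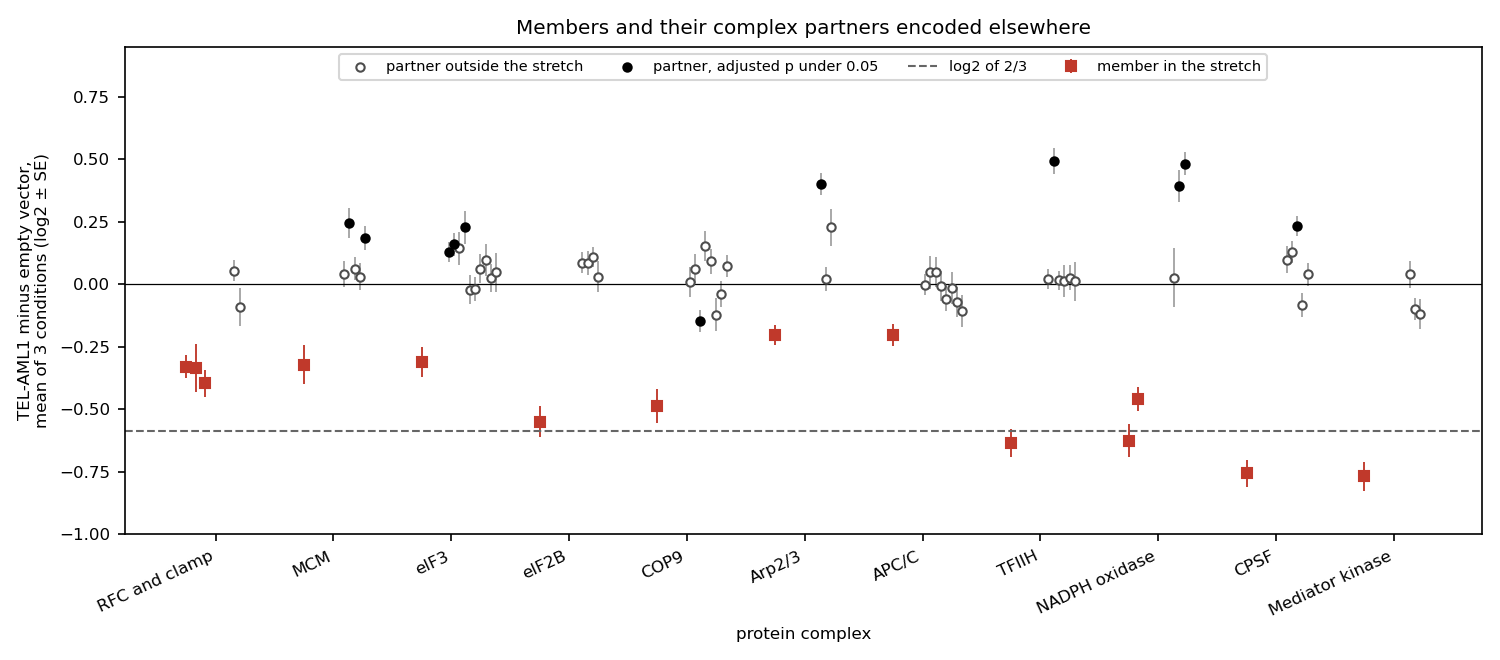
Mean difference between TEL-AML1 and empty vector over the 3 conditions (log2, ± SE) for members in the stretch (red squares) and for their tested partners encoded elsewhere (circles, filled at an adjusted p under 0.05), by complex; the dashed line is log2 of 2/3. The members lie below 0 in all 11 complexes, and the partners lie around 0, with Gtf2h4, Rac2, Actr3 and Ncf4 the highest.

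The response of the members to treatment within each vector is not the contrast that chose them, but it uses the same arrays. How far the choice tilted these responses was not tested. With empty vector 2 members were higher and 5 lower at day 5, against 8.4% and 7.15% of all genes, and 4 were higher and 11 lower at day 7, against 6.28% and 9.18%. With TEL-AML1, 0 members passed at day 5, where 1.17% of all genes were higher and 0.429% lower, and 6 members had an unadjusted p under 0.05, as did 14.8% of all genes. At day 7 with TEL-AML1, 2 were higher and 3 lower, against 4.74% and 3.07%. The medians of the members were -0.08 and -0.09 with empty vector and 0.06 and -0.02 with TEL-AML1. OP9 stroma markers moved with the treatment: their summed intensity was 1786 to 1830.0 on untreated empty-vector arrays, 2065 to 2221 on untreated TEL-AML1 arrays, 7492 to 9306 at day 5 with empty vector and 3595 to 7745 with TEL-AML1. At day 7 it was 2358 to 5970.0 and 2121 to 4227. The list has 18 genes, 16 of them with a probe set and 12 over the filter. Pdgfrb gave the largest part of the untreated sums, with means of 904 with empty vector and 1216 with TEL-AML1. At day 5 Pdgfrb had 938 and 1229. The other stroma markers over the filter had untreated vector differences of -0.017 to 0.14. The summed signal of macrophage markers fell at day 5 with both vectors. With empty vector it went from 647 to 735 untreated to 478 to 591. With TEL-AML1 it went from 741 to 747 untreated to 563 to 712. C1qa and Cd68 gave most of the fall with both vectors. Among the macrophage markers over the filter, Adgre1 with empty vector and Csf1r with TEL-AML1 were slightly higher at day 5 instead. The part of either list in the responses was not tested.

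Ncf1 with empty vector and Flt1 with TEL-AML1 gave the calls that held without any 1 array. Ncf1 fell with empty vector from 273 and 247 untreated to 142 and 144 at day 5 and 147 and 122 at day 7, with no overlap. The changes were -0.80 ± 0.112 (SE, adjusted p = 0.00272) and -0.88 (adjusted p = 0.00158) by limma. With TEL-AML1, where it began lower, its day 5 change was -0.19 (adjusted p = 0.465). Flt1 fell with TEL-AML1 at day 7, with a change of -1.26 ± 0.174 (SE, adjusted p = 0.00252 by limma). These 3 calls held without each of the 12 arrays in turn. Flt1 with TEL-AML1 at day 5 was at -0.81 with an adjusted p of 0.0523 by limma, and it passed without day 5 replicate 2 of TEL-AML1 (adjusted p = 0.0146) and without either day 7 array of the empty vector (adjusted p = 0.0276).

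Flt1 also fell with empty vector, with changes of -0.73 at day 5 and -0.71 at day 7 (adjusted p = 0.0211 and 0.023 by limma). Pilra fell too, with changes of -1.33 and -1.49 (adjusted p = 0.0212 and 0.0139 by limma). Cux1 rose by 0.51 and 0.57 (adjusted p = 0.0154 and 0.00937 by limma) and Rhbdd2 by 0.36 and 0.46 (adjusted p = 0.0486 and 0.0215). Pomp (-0.34) and Ran (-0.32) were the other members lower at day 5. At day 7 Mlxip (0.50) and Setd1b (0.48) were also higher. Rfc3 (-0.62), Pilrb1 (-0.56), Cops6 (-0.45), Eif3b (-0.42), Eif2b1 (-0.37), Gusb (-0.35), Ran (-0.29) and Sbds (-0.27) were also lower. These calls depend on single arrays. Without untreated replicate 1, untreated replicate 2 or day 5 replicate 2 of the empty vector, Ncf1 was the 1 member called at day 5. Without either day 7 array of the empty vector, 12 members were called at day 5. The call of Flt1 at day 5 ended also without day 5 replicate 1, and those of Pomp and Rhbdd2 without any 1 of the untreated or day 7 TEL-AML1 arrays. Averaging its 2 probe sets, the second under the filter at a mean intensity of 50.6, ended both calls of Rhbdd2 (adjusted p = 0.264 and 0.0742 by limma). Its day 5 call also ended with centred arrays, no filter, a pseudocount of 1, only the groups compared and either replicate block (adjusted p = 0.0549 to 0.0759), and that of Pomp with only the groups compared and either replicate block (adjusted p = 0.0502 to 0.0901). At day 7, 1 member, Ncf1, was called without untreated replicate 1 or replicate 2 of the empty vector. Ncf1 and Rhbdd2 were called without day 7 replicate 1, the call of Rhbdd2 ended without day 7 replicate 2, and 8 members were called without either untreated TEL-AML1 array. With only the groups compared in the fit, Ncf1 and Pilra were called at day 7, and 9 members with the replicate block within each vector.

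With TEL-AML1 at day 7 the members that passed besides Flt1 were Gusb (-0.41), Ran (-0.36), Gna12 (0.34) and Aldh2 (0.65), with adjusted p-values of 0.0263, 0.034, 0.0189 and 0.0466 by limma. Gna12 read 548 and 517 untreated and 671 and 687 at day 7, and Aldh2 read 236 and 290.2 untreated and 476 and 371. Both kept their days apart. The call of Aldh2 ended with quantile normalization, centred arrays, no filter, a pseudocount of 1 and either replicate block (adjusted p = 0.0501 to 0.0772 by limma). Flt1 was the 1 member called without untreated replicate 1, untreated replicate 2 or day 7 replicate 2 of TEL-AML1. Without day 7 replicate 1 of TEL-AML1, Flt1 and Cux1 were called, and without either untreated array of the empty vector, Flt1, Gusb and Gna12. Without either day 7 array of the empty vector, 9 members were called, and the call of Aldh2 ended without either of its day 5 arrays. The replicate block within each vector left Gna12 and Flt1, only the groups compared gave 8 members, centring the arrays 3 and array weights 13.

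**Figure D5:**
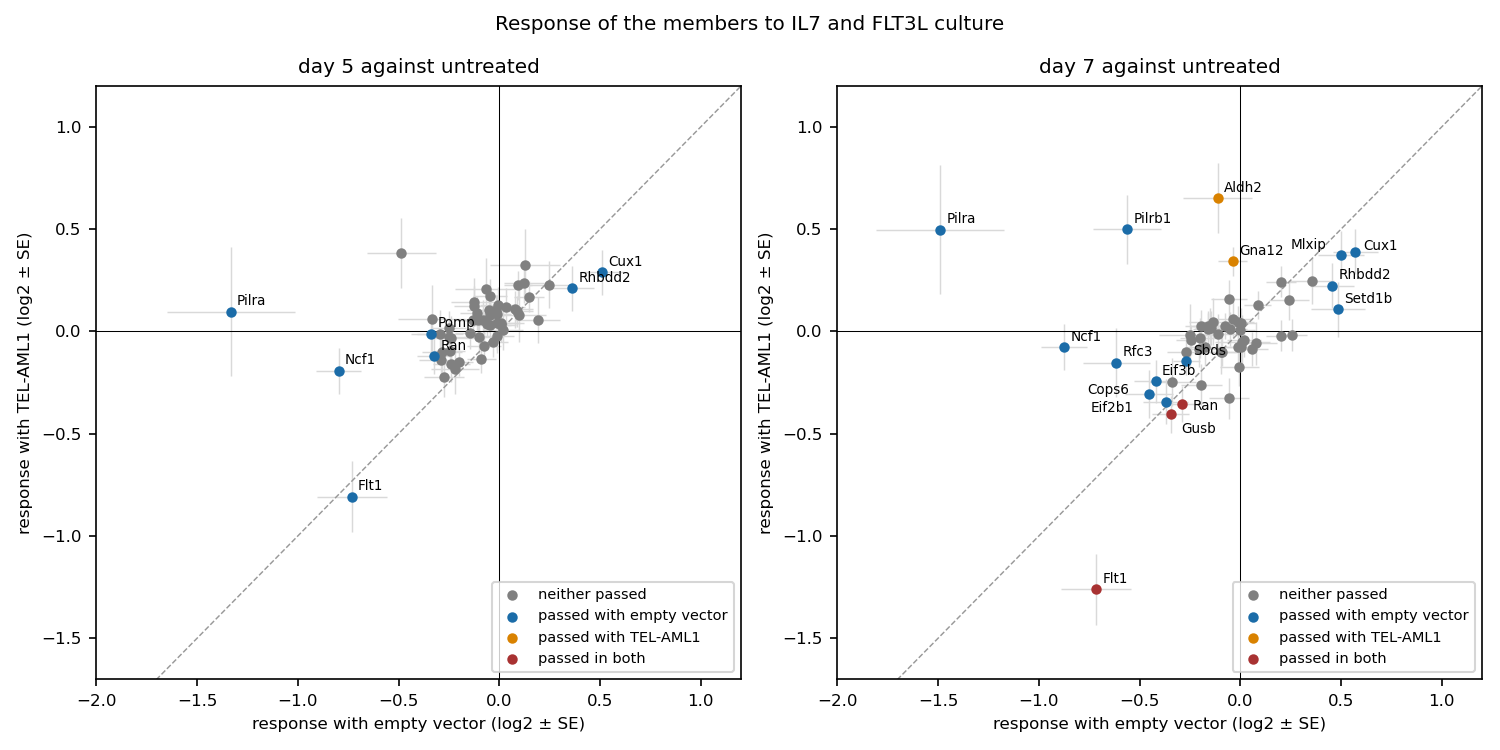
Response to treatment (log2 difference from untreated cells, ± SE) with empty vector on the horizontal axis and with TEL-AML1 on the vertical axis for the 55 members, at day 5 (left) and day 7 (right); colours mark members past an adjusted p of 0.05 and the dashed line marks equal responses. Most members lie near the origin, Flt1 is low on both axes, and Pilra, Pilrb1 and Ncf1 lie above the line of equal responses.

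No member passed the test of the difference between both vectors' responses in the fit of 6 group means, which did not pair the arrays. At day 5, 0 of 55 passed, against 0.0324% of all genes, with 5 members and 7.67% of all genes at an unadjusted p under 0.05 and a smallest adjusted p of 0.566 by limma. At day 7, 0 passed, against 0.081%, with 6 members and 9.02% of all genes at an unadjusted p under 0.05 and a smallest adjusted p of 0.15. The median difference between responses was 0.12 at day 5, with 45 of 55 members above 0, and 0.06 at day 7, with 33 above 0. Over all genes it was 0.03, with 55.5% above 0, and 0.01, with 51.0% above 0. This quantity is the change between conditions in the contrast that chose the members. Pilra had 1.43 and 1.99 ± 0.449 (SE), with adjusted p-values of 0.584 and 0.226 by limma. Pilrb1 had 0.87 and 1.06 (adjusted p = 0.566 and 0.226 by limma) and Ncf1 0.60 and 0.80 (adjusted p = 0.566 and 0.15). With the replicate block within each condition Ncf1 passed at day 7 (adjusted p = 0.0349 by limma), and without day 7 replicate 2 of the empty vector Setd1b did (-0.63, adjusted p = 0.0433).

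As a check of the labels, the probe sets of Etv6 and Runx1, the genes fused in TEL-AML1, were compared in untreated cells. Etv6 was higher by 0.32 (adjusted p = 0.0349 by limma) and Runx1 by 0.11 (adjusted p = 0.713). Whether their probes can bind the transgene was not tested. The progenitor markers, 6 of 7 with a probe set, summed to 8464 to 10000 on every array. The 6 B lineage markers with a probe set summed to 358 to 380.3 untreated, 515.5 to 579 at day 5 with empty vector and 421 to 505 with TEL-AML1, and 386 to 468 at day 7. Ebf1 gave most of the rise, from means of 48.9 and 48.4 untreated to 236 and 138 at day 5, while Pax5 stayed near the filter and Cd79a below it. Stroma marker sums also rose at day 5, to 7492 to 9306 with empty vector and 3595 to 7745 with TEL-AML1. The part of stroma in the Ebf1 values was not tested.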

How the data were processed

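RNA of 12 samples, 6 groups of 2, was read on 12 Affymetrix arrays. The deposited table holds 1 linear intensity per probe set. The authors' background correction, summarisation and normalization were not given in the sources used here. Array medians lay between 68.1 and 72.9, so the values were kept. An array has no read depth, and signal over background and 2 arrays per group limit precision. Groups and replicate numbers come from the sample titles.

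Of 35556 probe sets, 21218 list 1 gene in the platform annotation, 1881 list several and 12457 are not listed. Gene order and the genes of the stretch come from the start positions in the RefSeq gene table (GRCm38.p6). No distance between genes is given, since the genome build of the array annotation was not given in the sources used here. Where a gene had several probe sets, the one of highest mean log2 intensity was used. Genes above the 40th percentile of mean intensity (59.9) were kept, 12345 in all. Values are log2(intensity + 16), which understates changes of dim genes. All 12 arrays entered a single limma fit (version 3.58.1, R 4.3.3) with a mean for each of the 6 groups; it had 6 residual degrees of freedom and a prior of 4.23. The Benjamini-Hochberg adjustment ran over all genes, contrast by contrast. The fit was tested on simulated data.

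The members, roles, partner lists and tests were chosen with earlier results of these data known. Per-array values are given for the first and last member, those escaping or beyond the ratio in all conditions and the brightest of each role; Brca2, Baz1b, Cux1, Cpsf4, Limk1, Ncf1, Gna12 and Aldh2 were added after their values were seen. For each response the rule names up to 4 members each way, and the other members called were named too. Deviations of same-numbered arrays of both vectors correlated at 0.432 untreated, 0.543 at day 5 and 0.378 at day 7, so the numbers are taken to pair arrays within a condition; across conditions the values were -0.242 to 0.157. Alternatives were other normalizations, filters, pseudocounts, variance models, array weights, the replicate block, probe set means, other class widths and leaving out each array.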

Additional observations from a re-analysis of the deposited data

How the results depend on the processing

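The median differences of the members kept their sign in every setting tried. With a pseudocount of 64 they were -0.49, -0.38 and -0.44 (untreated, day 5, day 7), and leaving out 1 array gave -0.55 to -0.48, -0.45 to -0.41 and -0.53 to -0.42. Counts near the ratio in all conditions were 20 to 30 over other settings and 24 to 29 without 1 array, and escaping members were 6 to 8 and 6 to 7. Adding Pus1 was an alternative chosen after seeing the data. Without 1 array, the members called with empty vector were 1 to 12 at day 5 and 1 to 21 at day 7, those called with TEL-AML1 0 to 1 and 1 to 9, and those called in the difference between responses at day 7 0 to 1. The partners called were 6 to 15. With empty vector at day 7, the 15 calls were 2 with only the groups compared and 9 with the replicate block. With TEL-AML1 at day 5, 1 member (Flt1) was called after centring arrays, with the filter at the 60th percentile, with trended and robust variance and with array weights. With TEL-AML1 at day 7, the 5 calls were 3 after centring, 13 with array weights, 8 with only the groups compared and 2 with the replicate block. The replicate block within each condition, added after seeing the data for this test, gave 1 call in the difference between responses at day 7, and 0 at day 5. No count other than these moved by over 1.5 times with a replicate block. For the 30 single genes tested, 577 of 720 alternative fits kept the call, 143 lost it and 0 turned the direction. Why these counts changed was not tested, except that leaving out arrays leaves fewer samples. Brightness over background limits the dimmest members, Acad10 and Abcb9.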
